A study of Mus musculus with 16 samples.

Results

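Cytochrome P450 enzymes are heme proteins that insert oxygen into their substrates. Families 1, 2 and 3 hold most of the enzymes that oxidise drugs, pollutants and plant compounds, and several of them also act on steroids, fatty acids, bile acids and vitamin D. They sit in the endoplasmic reticulum, receive electrons from P450 oxidoreductase (Por) and are under the control of receptors that sense foreign and internal ligands, among them the aryl hydrocarbon receptor, CAR (Nr1i3), PXR (Nr1i2) and PPARα. In mice the families have grown by repeated gene duplication, so that many members lie side by side in clusters, above all the Cyp2c genes of chromosome 19.

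The genes described here were all protein-coding genes of the count table whose symbol is Cyp, a family number from 1 to 3, a subfamily letter and a gene number. This gave 58 genes of the 55385 in the table, of which 21897 were protein-coding. A further 3 protein-coding genes with another form of symbol (Cyp2ab1, Cyp3a41a and Cyp3a41b) and 23 pseudogenes of the same families fell outside the rule. Short-read RNA-Seq was done on the liver, kidney, lung, heart, spleen, muscle and both adipose tissues (white and brown) of male C57BL/6 mice that were 12 weeks old on arrival, were acclimatized for 10 to 14 days and either ate chow freely (fed) or went without food for 24 h (fasting). Tissue of 3 mice was pooled in equal parts for each tissue and treatment, and 1 library was made from each pool, 16 libraries in all. No genotype or drug treatment was involved. Because a tissue has 1 fed and 1 fasting library, a difference between them has no replicate check, and in bulk tissue fewer cells of a type and less RNA per cell cannot be told apart.

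The libraries held 14245178 to 36069968 counted reads, and levels are given as CPM, the count scaled to a common library total. Every one of the 58 genes had at least 1 count in some library, 45 reached 1 CPM in a library and 37 reached 10 CPM. The 13 genes that stayed below 1 CPM everywhere were Cyp2b9, Cyp2b13, Cyp2b19, Cyp2b23, Cyp2c65, Cyp2c66, Cyp2g1, Cyp2j12, Cyp2t4, Cyp2w1, Cyp3a16, Cyp3a44 and Cyp3a57. Markers of the labelled tissues were in place: the summed hepatocyte markers stood at 124000 and 111564 CPM in the fed and fasting liver, the kidney tubule markers at 36760 and 32293 CPM in kidney, and the club and alveolar markers at 26293 and 27423 CPM in lung. Markers of other cell types changed between paired libraries in some tissues, and several of these changes are given beside the genes of that tissue; their part in the P450 differences was not tested.

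Whether reads can tell the duplicated genes apart was asked first, since neighbouring genes turned out to move in opposite directions. The longest coding transcript of each gene was cut into all windows of 100 bases, the read length, and compared with every other transcript of GENCODE 21. For 22 of the 58 genes every window was found in no other gene, 9 genes had under 90% of windows of their own, and none had under 50%. The lowest was Cyp2c40 with 55.9%, followed by Cyp2c69 with 63.7%, Cyp2c67 with 76.3% and Cyp2c68 with 80.2%, so the levels of these Cyp2c genes are the least certain of the set. Cyp2c29, Cyp2c38, Cyp2c39 and Cyp2c70 shared no window with any other gene, although Cyp2c29 overlaps a pseudogene on the same strand, Cyp2c53-ps, that reached 5.04 CPM. Cyp2j13 overlaps an unnamed gene on its strand that reached 4.05 CPM, and Cyp2f2 and Cyp2u1 have antisense partners, Gm15883 at up to 14.8 CPM and 4930534D22Rik at up to 0.662 CPM, whose reads cannot be told apart from theirs where strand was not used in counting. The coding sequences of Cyp2c29 and Cyp2c38 were 89.1% identical and those of Cyp2c38 and Cyp2c39 were 94.2% identical, with a longest identical run of 98 bases. A stretch of 60 coding bases in exon 1 shows how often such neighbours differ; capitals mark the 8 positions at which the genes differ, and the build is GRCm38.

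Cyp2c29, chr19:39287154-39287213, + strand: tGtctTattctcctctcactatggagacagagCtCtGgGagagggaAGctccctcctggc

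Cyp2c38, chr19:39462959-39463018, - strand: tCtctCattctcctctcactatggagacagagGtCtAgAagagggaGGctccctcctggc

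Cyp2c39, chr19:39510907-39510966, + strand: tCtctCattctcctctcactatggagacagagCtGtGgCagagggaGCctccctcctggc

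Cyp2a4 and Cyp2a5 were closer still, with 23 differing bases of 1482 (98.4% identity) and a longest identical run of 216 bases, and 88.8% of the windows of Cyp2a4 and 85.6% of those of Cyp2a5 were their own. The first 60 coding bases of the pair, in exon 1 of each gene, differ at the 1 capital position.

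Cyp2a4, chr7:26307218-26307277, + strand: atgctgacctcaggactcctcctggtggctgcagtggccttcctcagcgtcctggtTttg

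Cyp2a5, chr7:26835364-26835423, + strand: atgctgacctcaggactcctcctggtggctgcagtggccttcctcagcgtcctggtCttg

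The counts nevertheless kept the pair apart. Per length, Cyp2a5, the coumarin hydroxylase, stood at 117 and 106 CPM per kb in the fed and fasting liver while Cyp2a4, a steroid hydroxylase, stood at 0.125 and 0.115 CPM per kb there. In kidney the order was the reverse, with Cyp2a4 at 277 and 292 CPM per kb and Cyp2a5 at 70.6 and 125 CPM per kb.

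The families were concentrated in a few organs. Summed over the 58 genes, the level was 20382 CPM in the fed and 22095 CPM in the fasting liver, or 2.04% and 2.21% of all counts (95% Wilson intervals 2.03 to 2.04% and 2.204 to 2.215%, which cover counting error only). Kidney followed with 5380 and 5281 CPM, white adipose with 2635 and 4265 CPM and lung with 2336 and 2729 CPM. The other tissues held 69.3 CPM (fasting muscle) to 649 CPM (fasting brown adipose). The fasting sum was 1.08 times the fed sum in liver and 0.981 times in kidney, whereas it was 1.62 times the fed sum in white adipose and 1.78 times in brown adipose. In spleen it was 1.55 times, in heart 1.38 times, in lung 1.17 times and in muscle 0.840 times the fed sum.

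**Figure D1:**
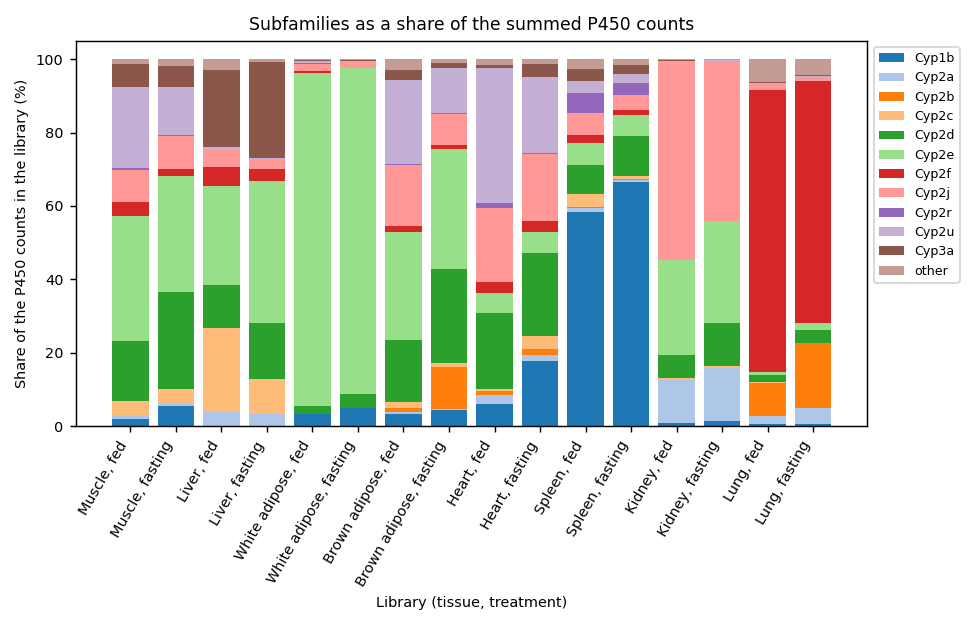
Share of the summed P450 counts of each of the 16 libraries (x axis, tissue and treatment) that falls to each subfamily, in percent (y axis); subfamilies that reach 5% in no library are joined as other. Cyp2e takes 90.8% and 88.7% of white adipose, Cyp2f 76.9% and 65.9% of lung, Cyp2j the largest part of kidney and Cyp1b 58.2% and 66.6% of spleen, in the fed and fasting library respectively.

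Of the 45 genes with a mean of at least 1 CPM in some tissue, 32 had their highest mean in liver, 8 in kidney, 4 in lung (Cyp2f2, Cyp2b10, Cyp2s1 and Cyp1a1) and 1 in white adipose (Cyp1b1). Over all 21284 genes at that level, 6.39% were highest in liver, 12.04% in kidney and 15.97% in lung. For 40 of the 45 both libraries of the top tissue lay above all 14 others, against 72.5% of all genes. In 22 of the 32 liver genes the liver mean was over 10 times that of the next tissue, and in 18 of them over 100 times.

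**Figure D2:**
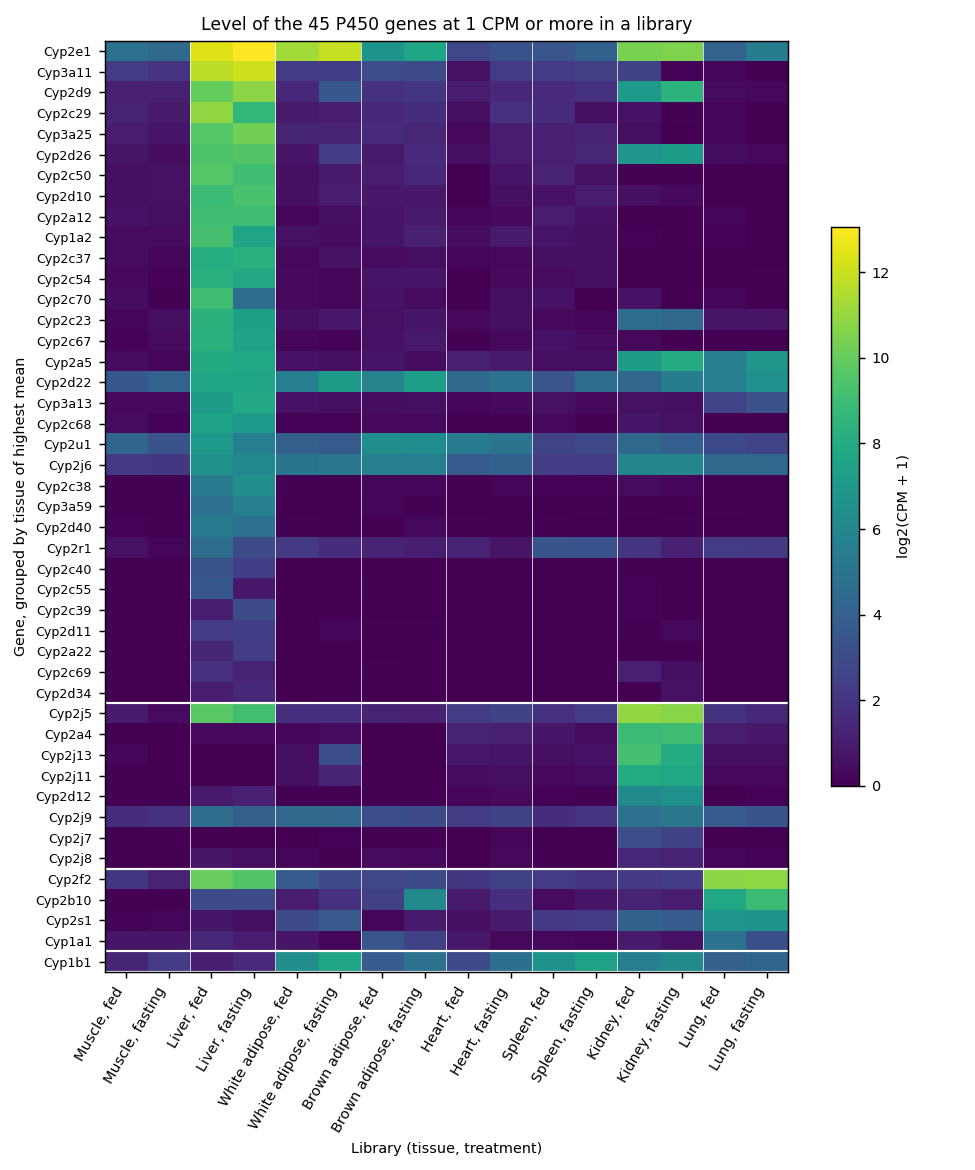
Level of the 45 genes at 1 CPM or more in a library (rows, grouped by tissue of highest mean and separated by white lines) in the 16 libraries (columns), as log2(CPM + 1) on the colour scale. The liver block is mostly dark outside the liver columns, with Cyp2e1, Cyp2d22, Cyp2u1, Cyp2j6, Cyp2a5 and a few kidney values among the exceptions, and the kidney block holds 6 Cyp2j genes, Cyp2a4 and Cyp2d12.

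An edgeR quasi-likelihood test of each of these 3 organs against the other tissues, with fasting as a covariate, had the fed and the fasting library of an organ as its samples. Genes entered by a filter on low values that an organ where they are high is enough to pass, so the counts describe the families and do not support a claim about them. In liver 38 of 45 tested genes were called higher (adjusted p under 0.05 and over 2-fold), where 16.3% of all 23580 tested genes were, and Cyp1b1 and Cyp2s1 were called lower, as were 18.4% of all genes. In kidney 19 were called higher against 18% of all genes and 8 lower against 11.5%. In lung 6 were called higher against 23.2% and 17 lower against 11.2%. The remaining 13 of the 58 did not pass the filter.

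Per length, Cyp2e1, which oxidises ethanol and acetone, was the highest gene of the set in liver with 2538 CPM per kb fed and 3942 CPM per kb fasting. Cyp3a11, the main PXR-responsive drug-oxidising enzyme of mouse liver, followed in the fed library with 653 CPM per kb and Cyp2c29 with 618 CPM per kb. In the fasting library the order after Cyp2e1 was Cyp3a11 with 829, Cyp2d9 with 665 and Cyp3a25 with 595 CPM per kb, and Cyp2c29 had fallen to 131 CPM per kb.

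The promoters of genes that were high in liver and of neighbours that moved apart are printed here because 2 short motifs recur in them. RefSeq promoter windows of 300 bases, from 250 before to 50 after the transcription start on GRCm38.p6, were found for 50 of the 58 genes. Each is printed 5′ to 3′ along its gene, and capitals mark TATAAA, letters found in TATA boxes, and CAAAGTNCA, a form of the site bound by HNF4A, on either strand. TATAAA begins 19 and 31 bases before the start in Cyp2c29 and Cyp2c38 but 234 bases before it in Cyp3a11. In Cyp2c70 it lies on the opposite strand and reads TTTATA along the gene, from 29 bases before the start.

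Cyp2c70, chr19:40187237-40187536, - strand: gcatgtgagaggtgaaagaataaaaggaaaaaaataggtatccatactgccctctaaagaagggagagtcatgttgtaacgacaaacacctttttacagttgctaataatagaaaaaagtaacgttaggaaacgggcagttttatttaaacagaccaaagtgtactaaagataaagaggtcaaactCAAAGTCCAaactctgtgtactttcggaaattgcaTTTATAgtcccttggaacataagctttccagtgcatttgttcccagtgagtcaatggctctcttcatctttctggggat

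Cyp2c29, chr19:39286835-39287134, + strand: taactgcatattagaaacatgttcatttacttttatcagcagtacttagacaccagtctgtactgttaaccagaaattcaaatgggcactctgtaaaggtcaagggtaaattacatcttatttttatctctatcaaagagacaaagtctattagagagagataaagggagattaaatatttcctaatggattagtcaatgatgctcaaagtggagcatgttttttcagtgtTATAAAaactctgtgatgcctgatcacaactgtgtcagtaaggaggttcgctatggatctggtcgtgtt

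Cyp2c38, chr19:39463026-39463325, - strand: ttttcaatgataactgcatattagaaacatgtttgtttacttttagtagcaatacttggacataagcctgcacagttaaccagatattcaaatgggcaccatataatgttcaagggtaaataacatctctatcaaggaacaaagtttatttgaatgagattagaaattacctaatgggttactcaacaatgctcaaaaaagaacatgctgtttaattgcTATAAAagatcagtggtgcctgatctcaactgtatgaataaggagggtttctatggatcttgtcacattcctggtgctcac

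Cyp3a11, chr5:145879805-145880104, - strand: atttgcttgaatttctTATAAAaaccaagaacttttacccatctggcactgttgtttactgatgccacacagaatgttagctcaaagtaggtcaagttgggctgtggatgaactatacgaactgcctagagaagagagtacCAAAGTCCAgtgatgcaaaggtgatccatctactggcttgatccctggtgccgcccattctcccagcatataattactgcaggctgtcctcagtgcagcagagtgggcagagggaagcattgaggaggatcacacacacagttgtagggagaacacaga

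TATAAA was present in the windows of 26 of the 50 genes (52.0%), against 13.6% of the 32851 promoter windows of the table. CAAAGTNCA was present in 12 (24%), against 1.41% of all windows: Cyp2c37, Cyp2c40, Cyp2c50, Cyp2c65, Cyp2c67, Cyp2c68, Cyp2c69, Cyp2c70, Cyp2d26, Cyp3a11, Cyp3a16 and Cyp3a44. It was found in 9 of the 27 genes with a window whose level was highest in liver, in none of the 6 highest in kidney and in none of the 4 highest in lung. Its other carriers, Cyp2c65, Cyp3a16 and Cyp3a44, stayed below 1 CPM in every library. Cyp2c29 and Cyp2c38, which were highest in liver, lack it. Of 2 further motifs searched, GTTAAT, a site bound by HNF1, was in 6 windows (12%, against 7.10% of all) and GCGTG, the core bound by the aryl hydrocarbon receptor, in 9 (18.0%, against 32.4%), those of Cyp1a1 and Cyp1b1 among them. Both strands were searched, matches could overlap, neighbouring genes share descent and so promoter sequence, and a match is a string and not a measured site.

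Within a tissue, a gene was called when Fisher's exact test on the counts of the fed and the fasting library gave p under 0.01 and the log2 ratio of CPM, each with a pseudocount of 0.01, lay beyond 0.5 in either direction. This test compares 2 libraries, not the conditions. In liver 27 of the 48 genes with a count were called, 9 higher and 18 lower in fasting, where 14% of all 25048 such genes were called. Over the 39 that reached 1 CPM in liver the median log2 ratio was -0.14, beside -0.13 over all genes at that level. With TMM-scaled library sizes, which moved the median of all liver genes by 0.12, the split was 11 higher and 11 lower, where 12.7% of all genes were called. Cyp2b9, Cyp2c50, Cyp2c69, Cyp2d40, Cyp2f2, Cyp2g1 and Cyp2j6 were no longer called, and Cyp1b1 and Cyp2d10 were called higher.

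**Figure D3:**
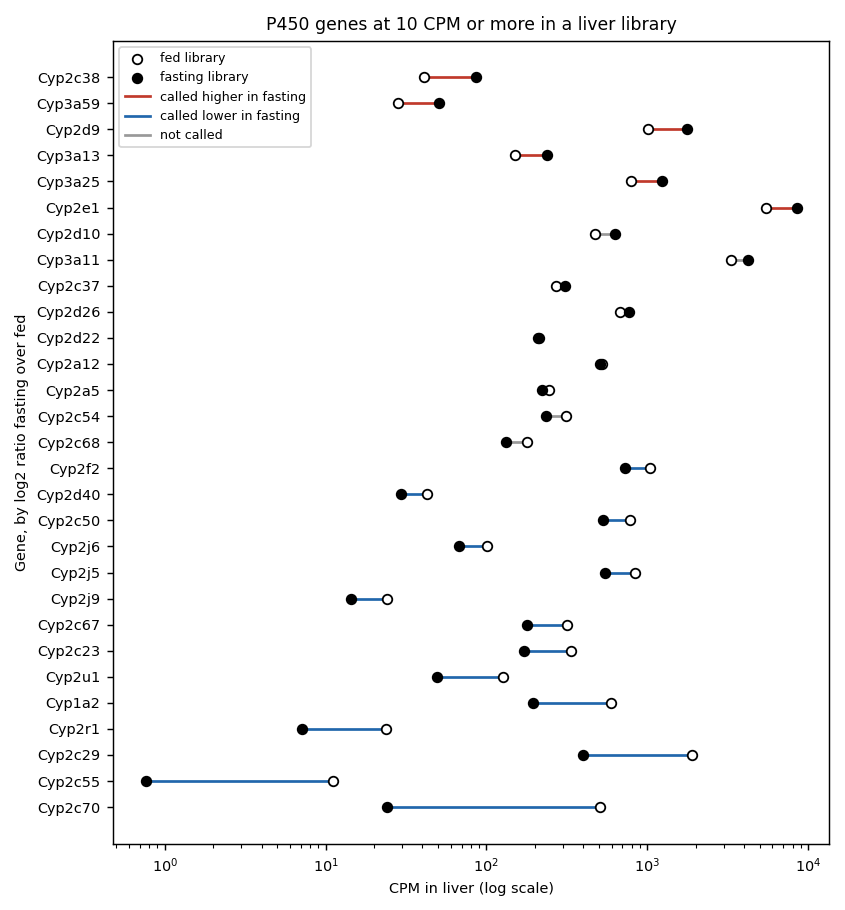
CPM on a log axis of the genes at 10 CPM or more in a liver library (rows, ordered by log2 ratio), with an open point for the fed and a filled point for the fasting library and the line coloured by call. Cyp2c70 at 505 and 24.1 CPM has the longest line to the left, and Cyp2c38 at 41.1 and 86.7 CPM tops the genes that were higher in fasting.

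The Cyp2c genes, which make epoxides from arachidonic acid and oxidise many drugs, had the largest decrease of the subfamilies in summed CPM, though not in ratio. Their summed level was 4655 CPM in the fed and 2080 CPM in the fasting liver. Cyp2c70, which makes the muricholic acids of mouse bile, fell from 505 to 24.1 CPM, a 20.98-fold difference. Cyp2c29 fell from 1891 to 401 CPM, or 4.72-fold, and Cyp2c55 from 11.2 to 0.761 CPM. Smaller decreases were called for Cyp2c23 (336 to 170 CPM), Cyp2c67 (318 to 180 CPM) and Cyp2c50 (781 to 529 CPM), and among genes under 10 CPM for Cyp2c40 and Cyp2c69.

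Their neighbours did not all follow. Cyp2c38 rose from 41.1 to 86.7 CPM and Cyp2c39 from 1.17 to 7.13 CPM, and these are the 2 genes that follow Cyp2c29 along the chromosome. Cyp2c37 stood at 271 and 308 CPM, Cyp2c54 at 310 and 235 CPM and Cyp2c68 at 178 and 133 CPM, none of which was called. Thus of the 13 Cyp2c genes at 1 CPM or more in liver 8 were called lower, 2 were called higher and 3 were not called, where 9.52% of all genes with a count in liver were called lower and 4.46% higher. With TMM-scaled sizes 6 were called lower and 2 higher, Cyp2c50 and Cyp2c69 being lost, where 12.7% of all liver genes were called in either direction.

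**Figure D4:**
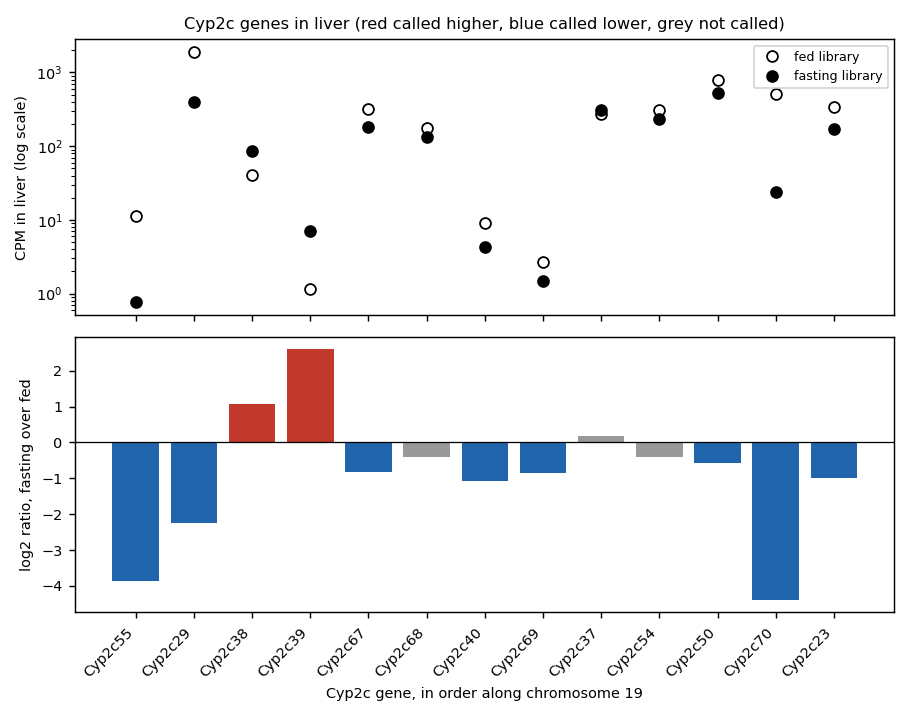
The 13 Cyp2c genes at 1 CPM or more in a liver library, in their order along chromosome 19 with equal spacing (Cyp2c23 lies apart from the others). The upper panel gives CPM on a log axis for the fed (open) and fasting (filled) library and the lower panel the log2 ratio of fasting over fed; Cyp2c38 and Cyp2c39 are the red bars above 0, beside Cyp2c29 at -2.24.

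Cyp1a2, the caffeine-oxidising target of the aryl hydrocarbon receptor, fell from 597 to 195 CPM in liver, a 3.07-fold difference. The epoxygenase genes Cyp2j5, Cyp2j6 and Cyp2j9 fell from 837 to 542, from 101 to 67.6 and from 24.1 to 14.4 CPM. Cyp2u1, a fatty acid hydroxylase, fell from 126 to 49.5 CPM, and Cyp2r1, the vitamin D 25-hydroxylase, from 23.8 to 7.17 CPM. Cyp2f2 went from 1041 to 731 CPM and Cyp2d40 from 42.5 to 29.3 CPM, both just past the fold required.

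Cyp2e1, Cyp2d9 and 3 of the 4 Cyp3a genes at 1 CPM or more rose in liver. Cyp2e1 rose from 5477 to 8507 CPM and thereby from 26.9% to 38.5% of the P450 counts. Cyp3a25, Cyp3a13 and Cyp3a59 rose from 789 to 1240, from 150 to 237 and from 28.2 to 50.4 CPM. Cyp3a11 stood at 3327 and 4221 CPM, which is under the fold required. Cyp2d9, the male-specific steroid 16α-hydroxylase, rose from 1010 to 1768 CPM, while Cyp2d10 (475 and 627 CPM), Cyp2d26 (679 and 768 CPM) and Cyp2d22 (209 and 213 CPM) were not called. Cyp2a12 (526 and 505 CPM) and Cyp2a5 were not called either, and Cyp2a22 rose at a low level, from 1.52 to 4.25 CPM.

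Cyp2e1 and Cyp1a2 are both known as pericentral genes of the liver lobule, and they moved in opposite directions. Of 7 other pericentral genes 3 were called higher and 1 lower, and of 6 periportal genes 3 were called higher and 1 lower, where 4.46% of all liver genes were called higher and 9.52% lower. Pancreatic acinar markers rose from 114 to 245 CPM in the fasting liver library, with 7 of 9 called, and hepatocyte markers went from 124000 to 111564 CPM, with 3 of 10 called lower. Adipocyte markers summed to 37.2 and 144 CPM, with 1 of 6 called, Cidec, which rose from 5.17 to 102 CPM. The part of these values in the liver differences was not tested.

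Genes known to be higher in female than in male mouse liver were low in these males, at 3.60 and 2.44 CPM summed over 6 genes. Cyp2c69 reached 2.69 and 1.48 CPM, Cyp2a4 0.217 and 0.2003 CPM, Cyp3a16 0.0868 and 0.681 CPM and Cyp3a44 0.304 and 0.0801 CPM in the fed and fasting liver. Cyp2b9 was counted 7 times in fed liver and 0 times in fasting liver, and Cyp2b13 had 0 in both, where 3 counts would be 0.130 and 0.120 CPM.

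The partners of the P450 enzymes in liver were looked at through fixed lists, to be read against the 4.46% of all liver genes called higher and the 9.52% called lower. Of 5 genes listed as electron donors, Por rose from 128 to 719 CPM. Cyb5b, a cytochrome b5, fell from 768 to 184 CPM and Cyb5r3, a cytochrome b5 reductase, from 370 to 155 CPM. Cyb5a, the other cytochrome b5 of the list, and Pgrmc1 were not called. Of 9 genes of heme synthesis, Alas1, the rate-limiting enzyme in liver, rose from 417 to 808 CPM and Cpox from 167 to 247 CPM, and Alas2, the form of red cell precursors, fell from 125 to 60.3 CPM. Of 4 genes of heme breakdown, only Blvra was called, lower and under 10 CPM in both libraries.

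Of 15 receptors and liver transcription factors, 5 rose and 3 fell (4.46% and 9.52% of all liver genes did), with a median log2 ratio of 0.26 beside -0.13 over all liver genes at 1 CPM or more. Nr1i3 (CAR) rose from 170 to 406 CPM, Nr1i2 (PXR) from 64.8 to 95.3 CPM, Ppara from 145 to 275 CPM, Hnf4a from 620 to 964 CPM and Cebpb from 39.6 to 80.0 CPM. Onecut1 fell from 67.4 to 16.4 CPM, Foxa2 from 43.9 to 18.9 CPM and Nr0b2 (SHP, a repressor induced by bile acids) from 26.0 to 15.2 CPM. Ahr itself stood at 64.5 and 60.6 CPM, and of 5 other targets of the aryl hydrocarbon receptor only Tiparp was called, from 10.2 to 7.13 CPM. Cyp2b10, the usual readout of CAR in liver, stood at 7.16 and 6.85 CPM there and was not called.

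Kidney held its own set. Cyp2j5, an arachidonic acid epoxygenase, was the highest gene per length at 835 and 730 CPM per kb in the fed and fasting library (1957 and 1713 CPM), followed by Cyp2e1 at 648 and 679 CPM per kb (1398 and 1465 CPM). Of the 45 genes with a count in kidney 13 were called, 5 higher and 8 lower in fasting, where 6.69% of all genes were. Cyp2d9 rose from 133 to 349 CPM, Cyp2a5 from 146 to 259 CPM, Cyp1b1 from 46.4 to 74.0 CPM and Cyp2d22 from 18.6 to 44.1 CPM. Cyp2j13 was the 1 gene over 10 CPM that fell, from 579 to 264 CPM.

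Other kidney genes over 10 CPM moved less than the fold required. Cyp2a4 stood at 482 and 508, Cyp2j11 at 256 and 217, Cyp2d26 at 112 and 136, Cyp2d12 at 73.0 and 93.1, Cyp2j6 at 63.7 and 60.5 and Cyp2j9 at 27.8 and 35.4 CPM. Cyp2c23 stood at 23.5 and 20.6, Cyp2u1 at 19.6 and 13.9 and Cyp2s1 at 15.8 and 12.7 CPM. Of the 8 genes called lower, 4 were among the 18 whose liver mean was over 100 times that of the next tissue: Cyp3a11, Cyp3a25, Cyp2c29 and Cyp2c70. Cyp3a11 went from 4.95 to 0.0776 CPM in kidney, and the 18 together from 8.46 to 1.05 CPM. Albumin went from 32.2 to 7.57 CPM in the same libraries and 6 of 10 hepatocyte markers were called lower and 1 higher, with a summed level of 1312 and 1694 CPM. The part of liver RNA in these calls was not tested.

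Lung was led by Cyp2f2, the naphthalene-oxidising enzyme of airway club cells, at 1795 and 1799 CPM (887 and 888 CPM per kb). Of 43 genes with a count in lung 6 were called, 5 higher and 1 lower in fasting, where 9.18% of all genes were. Cyp2b10 rose from 215 to 483 CPM, Cyp2a5 from 46.8 to 119 CPM, Cyp2d22 from 46.8 to 97.3 CPM and Cyp2e1 from 16.4 to 45.6 CPM. Cyp3a13 rose at a lower level, from 5.39 to 8.34 CPM. Cyp1a1, the classic target of the aryl hydrocarbon receptor, fell from 30.2 to 8.26 CPM, a 3.65-fold difference.

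Of the remaining lung genes over 10 CPM, Cyp2s1 stood at 114 and 109 CPM, Cyp2j6 at 20.4 and 19.6 CPM, Cyp1b1 at 14.7 and 17.4 CPM and Cyp2j9 at 12.7 and 9.40 CPM, and none was called. Of the 6 club and alveolar markers, 0 were called in lung. Adipocyte markers rose from 115 to 191 CPM in the fasting lung library, with 4 of 6 called higher and 1 lower. Cardiomyocyte markers fell from 815 to 388 CPM and B cell markers from 114 to 55.1 CPM, with 3 of 3 called lower in each list, and 5 of 10 hepatocyte markers were called lower. The part of adipocyte RNA in the lung rise of Cyp2e1 and Cyp2d22, which are high in adipose tissue, was not tested.

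In white adipose 12 of 43 genes with a count were called, 9 higher and 3 lower, where 19.1% of all genes were. Cyp2e1 rose from 2393 to 3784 CPM. Cyp1b1, an estrogen-oxidising enzyme of stromal cells, rose from 85.4 to 208 CPM and Cyp2d22 from 49.1 to 144 CPM. Cyp2d9 rose from 1.80 to 10.7 CPM and Cyp2s1 from 6.78 to 11.7 CPM, and Cyp2f2 fell from 12.2 to 7.07 CPM. Cyp2j6 (32.5 and 34.6 CPM), Cyp2j9 (19.6 and 18.6 CPM) and Cyp2u1 (14.3 and 12.1 CPM) were not called.

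Among white adipose genes under 10 CPM, Cyp2j13 rose from 0.472 to 7.77 CPM, Cyp2j11 from 0.472 to 1.42 CPM and Cyp2d26 from 0.730 to 3.97 CPM. These are high in kidney, or in liver and kidney, but Cyp2j5 (2.40 and 2.48 CPM), Cyp2a4 (0.129 and 0.292 CPM) and Cyp2a5 (0.558 and 0.401 CPM), which are also high in kidney, were not called. The 6 kidney tubule markers summed to 66.2 and 745 CPM, with 2 called higher and 0 lower. Lrp2, an endocytic receptor of the proximal tubule, rose from 34.9 to 710 CPM and Umod, made in the thick ascending limb, from 4.38 to 9.04 CPM, whereas Kap stood at 20.4 and 18.2 CPM and Slc34a1 at 5.07 and 6.96 CPM. The part of kidney RNA in these rises, or in that of Cyp2d9, which is also high in liver and kidney, was not tested.

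In brown adipose 7 of 38 genes were called, 6 higher and 1 lower, where 13% of all genes were. Cyp2b10 rose from 4.52 to 73.6 CPM, a 16.3-fold difference and the largest among the genes over 10 CPM outside liver. Cyp2d22 rose from 56.4 to 160 CPM, Cyp2e1 from 108 to 212 CPM and Cyp1b1 from 12.6 to 29.4 CPM, while Cyp1a1 fell from 10.1 to 4.70 CPM. Cyp2u1 (82.9 and 79.1 CPM) and Cyp2j6 (50.8 and 47.2 CPM) were not called. Markers of lung, the tissue in which Cyp2b10 was highest, summed to 56.7 and 80.3 CPM in brown adipose with 2 of 6 called higher, and Cyp2f2 at 5.96 and 7.16 CPM there was not called. Skeletal muscle markers fell from 2125 to 1007 CPM, with 4 of 4 called lower, and their part in the differences was not tested.

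The heart, spleen and muscle held low levels. In heart 10 of 38 genes were called, all 10 higher in fasting, where 10.1% of all genes were. Only Cyp1b1 (6.56 to 26.7 CPM) and Cyp2d22 (20.8 to 30.6 CPM) of these were over 10 CPM; Cyp2u1 at 40.2 and 31.3 CPM and Cyp2j6 at 12.9 and 15.8 CPM were not called. Of the 10, 6 were among the 18 genes with a liver mean over 100 times that of the next tissue, led by Cyp3a11 from 0.523 to 3.80 CPM and Cyp2c29 from 0.407 to 2.62 CPM. Albumin rose from 14 to 51.4 CPM in the same libraries and 8 of 10 hepatocyte markers were called higher. Adipocyte markers summed to 374 and 832 CPM, with Fabp4 (370 to 831 CPM) called higher, Cfd called lower and a median log2 ratio of -1.70 over the list. The part of liver or adipocyte RNA was not tested.

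In spleen 6 of 37 genes were called, 3 higher and 3 lower, where 3.93% of all genes were. The 3 that rose were Cyp1b1, from 99.3 to 176 CPM, Cyp2d22, from 9.93 to 23.1 CPM, and Cyp2e1, from 9.98 to 15.4 CPM. The 3 that fell, Cyp2c29, Cyp2c50 and Cyp2c70, were under 3 CPM in both libraries. Pancreatic acinar markers fell from 573 to 11.8 CPM in the fasting spleen, with 9 of 9 called lower. Hepatocyte markers summed to 399 and 438 CPM there, with 2 of 10 called lower, and the part of either list was not tested.

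In muscle 5 of 35 genes were called, 2 higher and 3 lower, where 13.8% of all genes were. Cyp2u1 fell from 18.3 to 9.05 CPM and Cyp2d22 rose from 11.2 to 16.2 CPM. Cyp2e1 stood at 27.95 and 21.9 CPM and was not called. Of 6 adipocyte markers 4 were called lower in fasting muscle, with a median log2 ratio of -1.11, and their part was not tested.

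Across tissues, the same few genes recurred. Cyp2d22 was called higher in fasting in 7 of 8 tissues, all but liver, Cyp1b1 in 6, all but liver and lung, and Cyp2e1 in 6. With a pseudocount of 1 CPM the calls of Cyp2d22 in muscle and of Cyp2e1 in heart were lost. Cyp2b10 was called higher in 4 (white adipose, brown adipose, heart and lung) and Cyp2d9 in 3 (liver, white adipose and kidney), at 1 CPM or more. Cyp2r1 was called lower in 3 (liver, white adipose and kidney), as was Cyp2f2 (liver, white adipose and muscle), whose liver call was lost with TMM-scaled sizes.

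**Figure D5:**
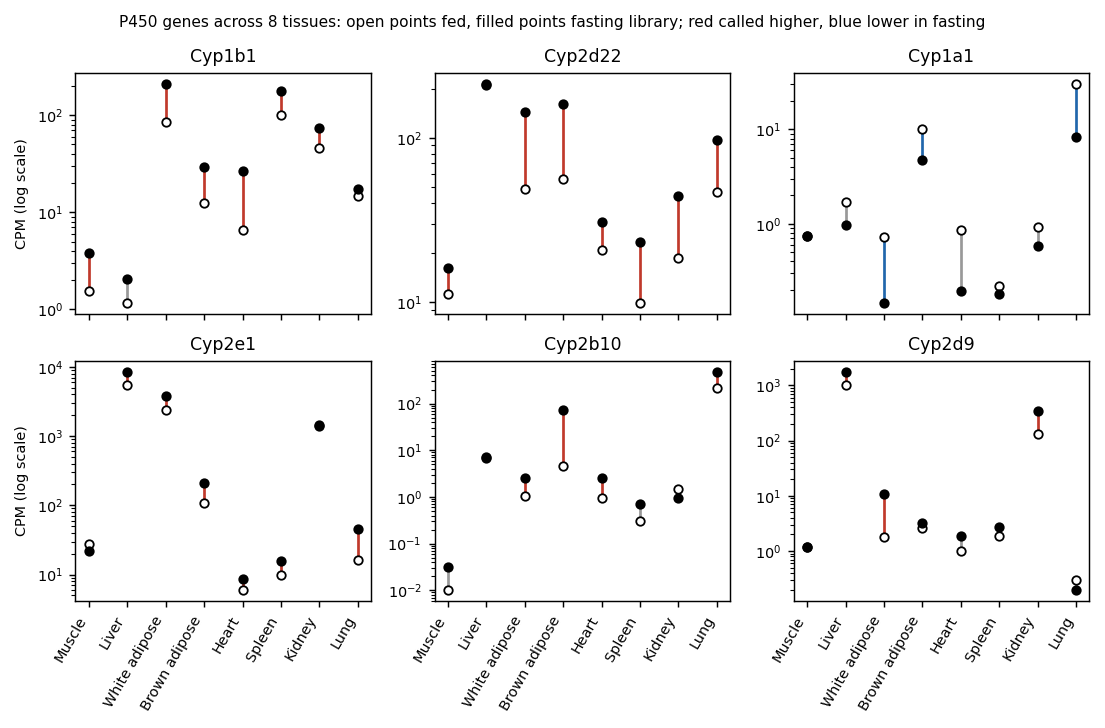
CPM on a log axis (y) of 6 genes in the 8 tissues (x), with an open point for the fed and a filled point for the fasting library and lines in red where the gene was called higher in fasting, blue where lower and grey where not called; a level of 0 is drawn at 0.01. Cyp1b1 and Cyp2d22 lie higher in the fasting library of each tissue, and Cyp1a1 lower except in muscle, where its points, 0.748 and 0.743 CPM, coincide.

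With the 8 tissues as blocks, so that each tissue gives 1 fed and 1 fasting library, the fit asks for a change shared by tissues. The tissues were collected from the same groups of 3 fed and 3 fasting mice, so they are not independent animals. The p-values measure how the difference between fed and fasting libraries varies between tissues, not between mice. It was made with edgeR's quasi-likelihood test and Benjamini-Hochberg adjustment over 17296 genes. Only 23 of the 58 genes passed its filter on low counts, since genes confined to liver or kidney are near 0 in most libraries. Of these, 3 were called at an adjusted p under 0.05, where 4.39% of all genes were. Cyp2d22 rose by 1.005 on the log2 scale (SE 0.15, n = 8 tissues, edgeR adjusted p = 0.0113), higher in fasting in 8 of 8 tissues. Cyp1b1 rose by 1.07 (SE 0.16, edgeR adjusted p = 0.0117), also higher in 8 of 8.

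Cyp1a1 fell by 1.09 (SE 0.25, edgeR adjusted p = 0.0405), lower in 7 of 8 tissues on the TMM scale of the fit but above 10 CPM only in lung and brown adipose. In muscle it was level on library totals (0.748 and 0.743 CPM) and 0.067 higher on the log2 scale with TMM. Its call was lost when any 1 of 6 tissues was left out, all but muscle and spleen. Cyp2d9 (0.97, adjusted p = 0.0571), Cyp2r1 (-0.76, adjusted p = 0.0636) and Cyp2e1 (0.62, adjusted p = 0.0743) came next in the edgeR fit and were not called there. DESeq2's Wald test called 8, where it called 10.7% of all genes, adding Cyp2d9, Cyp2e1 and Cyp2b10 as higher and Cyp2r1 and Cyp2u1 as lower.

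Whether liver responded unlike the other tissues was tested with a liver-by-treatment term. The edgeR test called 0 of the 45 genes that passed its filter, where 0.208% of all 23580 genes were called, DESeq2 also called 0 (1.42% of all genes), and 8 genes had an unadjusted p under 0.05 in edgeR, as did 7.83% of all genes. Cyp2c23 had the lowest adjusted p (edgeR, 0.361), with a fasting response 1.06 lower in liver on the log2 scale (SE 0.32). Cyp2d22, at 209 and 213 CPM in liver and higher by a log2 ratio of 0.53 to 1.55 in the other tissues, differed by -0.98 (SE 0.34, edgeR adjusted p = 0.459). The term rests on 1 fed and 1 fasting liver library, and for genes that are near 0 outside liver it has almost nothing to compare, so these values do not show that liver responded like the other tissues.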

How the data were processed

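The authors deposited 1 table of whole-number read counts per gene for the 16 short-read libraries, made from 100-base paired reads with fastp 0.23.2, HISAT2 2.2.1.0 and featureCounts of Subread 2.0 on GRCm38 with GENCODE 24, with gene lengths as a further column. Names and versions come from the submitters' processing notes and the study's methods, and whether featureCounts used strand is not given in the sources used here. The deposited counts were used as they stand, and 55144 of 55385 gene IDs were paired with a symbol from GENCODE 21 and RefSeq-based tables. The members and gene lists were chosen with earlier results of these data known.

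Levels are CPM on library totals, divided by gene length in kb where genes are compared. Within a tissue, Fisher's exact test was run on the 2 libraries; a call needed p under 0.01 and a log2 ratio of CPM, with a pseudocount of 0.01, beyond 0.5. Fits across tissues used edgeR 4.0.16 (TMM, quasi-likelihood test, Benjamini-Hochberg adjusted p under 0.05, filterByExpr), with DESeq2 1.42.0 as the alternative, in R 4.3.3. The calls within a tissue and the edgeR fits were tested on simulated data. The genes named were those at 10 CPM or more in a library of the tissue, the 2 highest per length in a tissue, those called in a fit, and the members of the female-biased and airway lists; genes of the other lists were named at 10 CPM or more in liver if called, and any gene below these levels was chosen after its values were seen. The 16 pools are 1 per group. The main fits hold tissue and treatment, so their p-values rest on how the difference between fed and fasting libraries varies between tissues, not between mice. Alternatives were other scalings, filters, pseudocounts and tests, and leaving out each tissue.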

Additional observations from a re-analysis of the deposited data

Results flagged for a closer look

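Genes called in opposite directions in different tissues, at 1 CPM or more in a library of each, were taken up here; the differences between tissues were not tested. Cyp2j13 had a log2 ratio of fasting over fed of 4.01 in white adipose and -1.13 in kidney. Cyp2c29 had -2.24 in liver, 2.66 in heart and -2.39 in spleen. Cyp3a11 had 2.84 in heart and -5.82 in kidney. Outside liver and kidney none of these levels passed 8 CPM. Of 10 hepatocyte markers 8 were called higher in heart, where Cyp3a11 and Cyp2c29 rose. In kidney 6 were called lower and 1 higher, with a summed level of 1312 and 1694 CPM, and in spleen 2 were called lower, with a summed level of 399 and 438 CPM; Cyp3a11 stood at 3.97 and 4.49 CPM in spleen and was not called. The part of liver RNA was not tested.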

How the results depend on the processing

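Calls within a tissue rest on counting error alone, and an assumed spread between mice removed many of them. When a coefficient of variation of 0.2 was assumed in the exact test of edgeR, the genes called were 9 in liver (3.68% of all genes), 8 in kidney (1.32%), 5 in white adipose (8.51%), 4 in heart (2.17%), 4 in lung (1.88%), 3 in brown adipose (3.23%), 3 in spleen (0.827%) and 1 in muscle (2.94%). With 0.4 they were, in the same order, 3 (0.854%), 3 (0.165%), 2 (4.02%), 1 (0.231%), 0 (0.286%), 1 (0.4998%), 0 (0.201%) and 0 (0.355%). The 3 left in liver were Cyp2c39, Cyp2c55 and Cyp2c70. A log2 ratio beyond 1 left 13 in liver. A filter at 1 CPM left 6 in heart, as did Benjamini-Hochberg adjustment. A filter at 10 CPM, chosen after seeing the data, left 6 in white adipose, 5 in kidney, 3 in spleen, 2 in heart and 2 in muscle.

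With TMM sizes the summed log2 ratio went from 0.12 to 0.24 in liver, from 0.69 to 0.59 in white adipose, from -0.03 to 0.048 in kidney and from 0.22 to 0.30 in lung, and with DESeq2 size factors to 0.24, 0.58, 0.031 and 0.30; the kidney sum thus changed sign. TMM moved the median of all genes by 0.12 in liver and -0.11 in white adipose. In the fit across tissues DESeq2 called 8 members (10.7% of all genes), the fit without the low-count filter 6 (1.83%) and the fit without tissue blocks 0 (0.00578%, 1 gene). Leaving out 1 tissue gave 2 to 3, where 0.891% to 4.21% of all genes were called. Over these edgeR and DESeq2 settings the adjusted p of Cyp2d22 ran from 2.61e-07 to 0.99998, that of Cyp1b1 from 3.74e-07 to 0.99998 and that of Cyp1a1 from 0.00220 to 0.99998. The upper ends came from the fit without tissue blocks, which leaves the level differences between tissues in its spread. The part of this in the adjusted p was not tested. The members called in liver, kidney or lung against the other tissues numbered 38 to 44, 22 to 30 and 20 to 27 over the settings run. All were within 1.5 times the main count. The share of all genes called ran from 22.7% to 43.4%, from 19.7% to 32.2% and from 23.4% to 41.0%. Of the members called lower, the 2 in liver became 4 with DESeq2 and 1 without lung or without the fasting liver library. The 8 in kidney became 11 with DESeq2, 12 without lung and 4 without liver, where 36 members were tested in place of 45. The fit with tissue blocks pairs the fed and fasting library of each tissue; the labels give no replicate numbers for any other pairing.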
